A study of Homo sapiens with 9 samples.

Results

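The machinery that carries new proteins into the endoplasmic reticulum (ER) and on towards the Golgi was examined as 47 listed genes. They encode the signal recognition particle, its receptor, the SEC61 translocon, the TRAP complex, signal peptidase, the COPII and COPI coats, the KDEL receptors and several cargo receptors. The genes were listed by function, with earlier results of these data known. Of the 47 genes, 42 had a probe set naming them alone, out of 17958 genes on the arrays. SPCS1, SEC31A and COPA lay only on probe sets that also name another gene, SEC61G and KDELR2 had no named probe set, and these 5 were not analysed here. Where a gene had more than 1 probe set, the one brightest over all 9 arrays stood for it.

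The cells were HCT 116, an established human colorectal cancer line, studied 24 h after transfection. Cells in the KL-FL group received mouse full-length klotho, those in the KL1 group received an expression vector for the mouse KL1 subdomain of klotho, and controls received the vector pcDNA3, with 3 arrays per group. Klotho is a membrane and shed protein with anti-ageing and tumour-suppressing activities, and the series title links it to the unfolded protein response. All groups were transiently transfected, with JetPEI or polyethylenimine, and which sample received which reagent is not given. Whether each replicate was a culture of its own is not given, and the spread behind each p-value may therefore be technical. In a bulk sample, fewer cells making a transcript and less transcript per cell cannot be told apart.

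A protein destined for secretion is recognised at the ribosome by its signal sequence, handed to the SRP receptor and threaded through the SEC61 channel, while signal peptidase trims the signal. COPII vesicles then carry folded cargo from the ER to the Golgi, and COPI vesicles return escaped ER residents, many of them caught by KDEL receptors. When unfolded proteins accumulate, the transcription factor XBP1 is known to raise many of these genes, through promoter elements that include the unfolded protein response element TGACGTGG.

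That element was common in the promoters of the listed genes. RefSeq promoters (GRCh38.p14, 250 bases before to 50 after the start, 300 in all) were matched for 43 of the 47 genes, and for 40 of the 42 measured. SRPRA, SEC24D, KDELR2 and SPCS1 were not matched. TGACGTGG stood on either strand in 11 of the 43 genes, or 25.6%, against 155 of the 13864 measured genes with a promoter, or 1.12%. Some genes have several promoters in the table, and counted singly the element stood in 12 of the 60 promoters of listed genes, or 20.0%, against 0.729% of all 35116. In SSR3, SSR4 and SEC16A only 1 of several promoters holds it. The shorter core GACGTG, which lies inside TGACGTGG, stood in 24 of the 43, or 55.8%, against 9.34% of all genes with a promoter. It stood in 29 of the 60 promoters of listed genes, or 48.3%, against 7.81% of all promoters. The ER stress element, CCAAT and CCACG with 9 bases between them, was in 0 of 43 genes, against 0.0916% of all genes with a promoter. ER stress element II, ATTGG and CCACG with 1 base between them, was also in 0 of 43 genes, against 0.0696%. Each was in 0 of the 60 promoters of listed genes, against 0.0769% and 0.0541% of all promoters. At rates this low, 0 of 43 says little about the listed genes. These are counts of letters in a fixed window, both strands read, with no test, and a match is not a binding site. The following windows are shown because they let the element be compared between translocation and coat genes. The capitals mark TGACGTGG or its reverse complement CCACGTCA, each sequence is read 5′ to 3′ on the gene's own strand, and COPB2 holds 1 further site that is not shown.

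COPA, chr1:160343222-160343261, minus strand: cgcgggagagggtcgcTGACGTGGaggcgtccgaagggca
COPB1, chr11:14499836-14499875, minus strand: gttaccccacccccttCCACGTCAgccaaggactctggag
COPB2, chr3:139389820-139389859, minus strand: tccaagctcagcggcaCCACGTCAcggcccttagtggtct
KDELR3, chr22:38468034-38468073, plus strand: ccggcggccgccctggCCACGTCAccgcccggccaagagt
SEC16A, chr9:136484702-136484741, minus strand: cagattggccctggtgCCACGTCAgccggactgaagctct
SEC23A, chr14:39103216-39103255, minus strand: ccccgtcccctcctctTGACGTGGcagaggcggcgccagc
SEC24A, chr5:134648590-134648629, plus strand: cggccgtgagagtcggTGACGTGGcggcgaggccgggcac
SEC62, chr3:169966774-169966813, plus strand: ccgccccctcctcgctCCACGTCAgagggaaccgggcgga
SRP19, chr5:112861159-112861198, plus strand: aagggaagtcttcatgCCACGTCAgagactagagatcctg
SSR3, chr3:156554143-156554182, minus strand: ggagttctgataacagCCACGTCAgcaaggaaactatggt
SSR4, chrX:153794523-153794562, plus strand: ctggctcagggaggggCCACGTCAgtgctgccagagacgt

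The genes with the element span 6 steps of the pathway. SRP19 belongs to the signal recognition particle, SEC62 to the translocon and SSR3 and SSR4 to the TRAP complex. SEC16A, SEC23A and SEC24A belong to COPII, COPA, COPB1 and COPB2 to COPI, and KDELR3 retrieves ER proteins. With position 0 as the first base after the 250 upstream bases, the element began at -112 in SRP19, at -179 in SEC24A, at -41 in SSR3 and at -129 in SSR4. In SEC23A, at -4, it lay across the start. The whole promoters of SRP19 and SEC24A are shown because these 2 genes hold the element and lay above every control array with KL-FL. That of SSR1 is shown because this gene, with the smallest KL-FL p-value of the list, lacks the element. It does hold the shorter core GACGTG, as an unmarked CACGTC on the gene's own strand.

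SRP19 promoter, chr5:112861037-112861336, plus strand: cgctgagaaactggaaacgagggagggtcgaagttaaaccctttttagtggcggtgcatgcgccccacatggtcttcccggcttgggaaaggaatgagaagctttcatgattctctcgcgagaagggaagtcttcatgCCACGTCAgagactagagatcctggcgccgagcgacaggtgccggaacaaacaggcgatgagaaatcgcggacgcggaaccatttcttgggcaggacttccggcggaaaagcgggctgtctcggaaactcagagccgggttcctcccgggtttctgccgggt
SEC24A promoter, chr5:134648535-134648834, plus strand: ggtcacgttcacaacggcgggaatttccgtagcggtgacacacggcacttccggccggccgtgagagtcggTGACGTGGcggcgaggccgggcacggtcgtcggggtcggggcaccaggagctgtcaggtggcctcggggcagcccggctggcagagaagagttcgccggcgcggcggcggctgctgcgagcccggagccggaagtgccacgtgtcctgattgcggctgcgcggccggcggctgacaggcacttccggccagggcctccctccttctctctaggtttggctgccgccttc
SSR1 promoter, chr6:7313150-7313449, minus strand: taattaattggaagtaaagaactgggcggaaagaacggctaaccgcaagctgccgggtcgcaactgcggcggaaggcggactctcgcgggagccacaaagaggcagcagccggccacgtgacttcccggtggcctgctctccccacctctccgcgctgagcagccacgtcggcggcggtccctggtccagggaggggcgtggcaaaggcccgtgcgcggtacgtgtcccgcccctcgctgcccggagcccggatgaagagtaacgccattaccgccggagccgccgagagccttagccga

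Values are log2 expression as the authors deposited them, differences are between group means, and each adjusted p is limma's, from a two-sided test, adjusted by Benjamini-Hochberg across the 17958 genes. The values are per probe set and do not compare levels between genes. All 42 measured genes were at or above the 50th percentile of mean brightness.

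The transfected sequences were mouse, so the human KL probe set is a weak check of the transfections. Human KL read 3.19 ± 0.046 with KL-FL, 3.19 ± 0.067 with KL1 and 3.05 ± 0.014 in controls (SD, n = 3 each). All 6 klotho arrays lay above the 3 controls, a pattern shown by 2.2% of all genes. The KL probe set was dim, at the 12.7th percentile of mean brightness, and its values do not show whether the transfections worked. The difference was 0.14 with KL-FL (unadjusted p = 0.0072, adjusted p = 0.637, limma) and 0.15 with KL1 (unadjusted p = 0.0057, adjusted p = 0.927). The array medians lay between 5.38 and 5.42. The correlation of an array with the others, as a median over pairs, was 0.997 for KL-FL replicate 3 and 0.998 to 0.999 for the rest. Of 11 epithelial and colorectal markers, 8 were at or above the 50th percentile of brightness (EPCAM, KRT8, KRT18, KRT19, CDH1, CLDN4, CLDN7 and CDX2), while VIL1, LGALS4 and CEACAM5 were below it. The list's mean per array was 7.52 to 7.67 with KL-FL, 7.57 to 7.64 with KL1 and 7.62 to 7.64 in controls. Fibroblast and endothelial markers averaged 3.73 to 3.75, 3.73 to 3.74 and 3.72 per array in the same order of groups, with 1 of 9 in the brighter range. Leukocyte markers averaged 3.35 to 3.52, 3.40 to 3.44 and 3.40 to 3.42, with 0 of 6.

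No listed gene differed past the threshold after transfection with either klotho form. With KL-FL 0 of 42 genes had an adjusted p under 0.05, with KL1 0 of 42, with both klotho groups together 0 of 42, and between KL-FL and KL1 0 of 42. Over all genes limma called 1 of 17958, or 0.00557%, in each of the 3 comparisons with control, and 0% between KL-FL and KL1. The smallest adjusted p of a listed gene was 0.646 with KL-FL, 0.927 with KL1, 0.748 with both together and 0.855 between the klotho forms. At an unadjusted p under 0.05, 6 of the 42 genes differed with KL-FL, or 14.3%, against 7.16% of all genes. Among genes at or above the 50th percentile of brightness, where all 42 lie, the share was 8.27%. Of the 6 listed genes, SSR1, SEC63, SEC24D, SEC24A and SRP19 were the 5 with higher means, and SSR2 the 1 with a lower mean. With KL1 the count was 1 of 42, SEC24D, against 5.1% of all genes. With both klotho groups together it was 5 of 42, SEC24D, SEC63, SEC24A, SSR1 and MCFD2, against 6.6%. Between KL-FL and KL1 it was 1 of 42, SSR1, against 5.05%. Single arrays moved these counts. With KL-FL the count was 3 without control replicate 1 (6.08% of all genes), 3 without control replicate 2 (5.17%), and 4 without control replicate 3 (5.52%). It was 4 when KL-FL replicate 2 was left out (9.56%), and 10 when KL-FL replicate 3 was (8.24%). With KL1 it was 3 without control replicate 3 (4.76%) or KL-FL replicate 3 (6.74%) and 2 without KL1 replicate 2 (4.98%). For both together it was 3 without any 1 of the controls (4.67% to 5.36%), KL-FL replicate 2 (7.33%) or KL1 replicate 1 (5.72%). For KL-FL against KL1 it was 5 of 42 when KL-FL replicate 2 was left out (8.25%), and 2 of 42 when KL-FL replicate 3 was (6.24%). It was 3 without KL1 replicate 1 (6.31%), 0 without KL1 replicate 2 (4.18%) and 0 without KL1 replicate 3 (4.04%).

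Small positive differences were common among the genes. With KL-FL, 33 of 42 genes had a higher mean and 9 a lower one, with a median difference of 0.034, while 57.3% of all genes were higher, with a median of 0.0099. Among genes at or above the 50th percentile of brightness, where all 42 lie, 50.9% were higher with KL-FL and the median was 0.0015. With KL1, 28 of the 42 were higher and 14 lower, with a median of 0.013. Of all genes 52.1% were higher with KL1, with a median of 0.0026, and of the brighter ones 40.3%, with a median of -0.014. With both klotho groups together the split was 29 to 13 and the median 0.024, against 55.5% higher and 0.0067 for all genes, and 45.2% higher and -0.0067 for the brighter ones. Between KL-FL and KL1 the split was 29 to 13 with a median of 0.027. Of all genes 54.4% were higher there, with a median of 0.0058, and of the brighter ones 58.4%, with a median of 0.012. The comparisons with control share the same 3 control arrays, and the medians are descriptions with no test.

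The medians also depended on single arrays. Without KL-FL replicate 3 the KL-FL median was 0.058 with 37 of 42 genes higher, and without KL-FL replicate 2 it was 0.017 with 25 of 42 higher. The KL1 median was -0.0021 without KL1 replicate 1, 0.0018 without control replicate 3, 0.023 without KL1 replicate 2 and 0.022 without control replicate 1. For both klotho groups together it was 0.015 without control replicate 2, and 0.032 without KL-FL replicate 3 or without KL1 replicate 3. Between KL-FL and KL1 it was 0.0020 without KL-FL replicate 2, 0.047 without KL-FL replicate 3, 0.043 without KL1 replicate 1 and 0.016 without KL1 replicate 3.

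**Figure D1:**
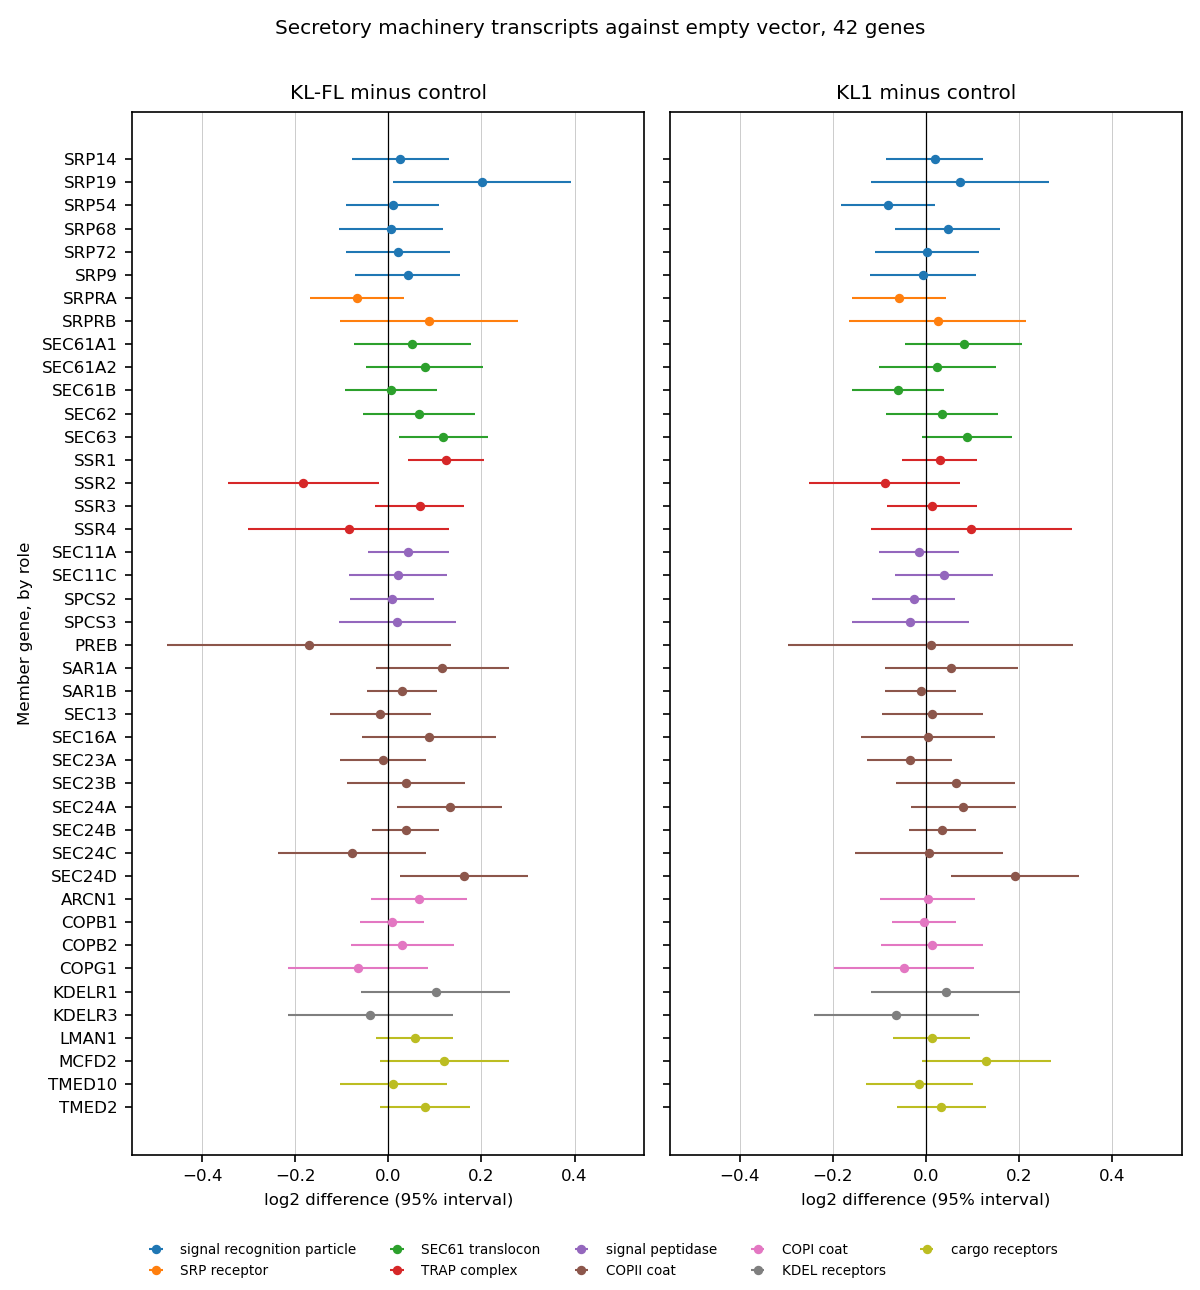
Log2 difference of each of the 42 measured genes with KL-FL (left) and KL1 (right), minus control, with the 95% interval from limma, coloured by role (n = 3 arrays per group). Points lie between -0.18 and 0.20 with KL-FL and between -0.088 and 0.19 with KL1, and none passed the threshold.

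The intervals give the sizes these arrays could still hold. The half-width of a gene's 95% interval between any 2 groups ran from 0.069 to 0.31 on the log2 scale, with a median of 0.11, and for both klotho groups together from 0.060 to 0.26, with a median of 0.097. The whole interval lay within a 1.5-fold difference either way for 42 of 42 genes in each of the 4 comparisons. Within 1.3-fold it lay for 40 of 42 genes with KL-FL, all but PREB and SRP19, and for 42 of 42 with KL1. Between KL-FL and KL1, 40 of 42 intervals lay within 1.3-fold, all but those of PREB and SSR4. These intervals are per gene and are not adjusted for the number of genes. They rest on the spread within groups, which may be technical, and would then be too narrow for separate cultures.

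The first step, the signal recognition particle, showed 6 of 6 genes with higher means with KL-FL, against 57.3% of all genes. The median difference was 0.024. With KL1 4 of 6 were higher, against 52.1% of all genes, with a median of 0.011. For this and each later role, the shares among genes at or above the 50th percentile of brightness were 50.9% with KL-FL and 40.3% with KL1. SRP19, needed to assemble the particle on its RNA, read 6.98, 7.26 and 6.92 with KL-FL, 6.98, 6.90 and 6.89 with KL1, and 6.75, 6.91 and 6.89 in controls. Replicate 2 of KL-FL stood highest by far, and the KL-FL arrays all lay above the controls, the lowest by a narrow margin. The difference was 0.20 with KL-FL (SE 0.084, adjusted p = 0.689), which is 1.15-fold with a 95% interval of 1.01 to 1.31, and 0.074 with KL1 (adjusted p = 0.935). Without 1 array at a time the KL-FL difference ran from 0.096 to 0.27, the lowest without KL-FL replicate 2.

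SRP54, the GTPase that binds signal sequences, read 8.06, 8.05 and 8.19 with KL-FL, 8.02, 8.05 and 7.95 with KL1, and 8.11, 8.07 and 8.09 in controls. All KL1 arrays lay below the controls, and all KL-FL arrays lay above the KL1 arrays, in 1 case at the third decimal only. The difference was -0.082 with KL1 (SE 0.044, adjusted p = 0.927) and 0.091 between KL-FL and KL1 (adjusted p = 0.855). With KL-FL the SRP54 difference was 0.0094, and it was -0.036 without KL-FL replicate 3. SRP9 and SRP14, which together pause elongation, differed by 0.042 and 0.026 with KL-FL and by -0.0062 and 0.019 with KL1. SRP68 and SRP72, which bind each other on the particle, differed by 0.0057 and 0.022 with KL-FL and by 0.047 and 0.0019 with KL1.

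The receptor subunits differed in sign with KL-FL. SRPRA, the GTPase subunit that meets SRP54, read 8.46, 8.46 and 8.38 with KL-FL, 8.46, 8.46 and 8.41 with KL1, and 8.55, 8.54 and 8.41 in controls. SRPRB, which anchors SRPRA in the membrane, read 7.89, 7.99 and 7.67 with KL-FL, 7.87, 7.69 and 7.81 with KL1, and 7.84, 7.79 and 7.66 in controls. Groups overlapped for both genes. With KL-FL the differences were -0.067 for SRPRA (adjusted p = 0.738) and 0.087 for SRPRB (adjusted p = 0.788), and with KL1 they were -0.059 and 0.025. Leaving out 1 array at a time gave -0.11 to -0.042 for SRPRA with KL-FL, and 0.017 to 0.18 for SRPRB, with its low end lacking KL-FL replicate 2 and its high end lacking KL-FL replicate 3.

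In the SEC61 translocon 5 of 5 measured genes had higher means with KL-FL, against 57.3% of all genes, with a median difference of 0.066. With KL1 4 of 5 had higher means, against 52.1% of all genes, with a median of 0.035. SEC63, a J-domain protein that brings the chaperone BiP to the channel, read 8.71, 8.68 and 8.71 with KL-FL, 8.64, 8.74 and 8.64 with KL1, and 8.59, 8.52 and 8.64 in controls. The KL-FL arrays lay close together and above every control array, while KL1 overlapped the controls. Its difference was 0.12 with KL-FL (SE 0.042, adjusted p = 0.688) and 0.088 with KL1 (adjusted p = 0.927). SEC61B, the small tail-anchored subunit of the channel, read 8.40, 8.44 and 8.33 with KL-FL, 8.36, 8.27 and 8.33 with KL1, and 8.35, 8.35 and 8.45 in controls, with overlap throughout. It differed by 0.0064 with KL-FL and -0.061 with KL1. The first was -0.019 without KL-FL replicate 2, and -0.010 without control replicate 1 or control replicate 2. The pore-forming SEC61A1 and its paralogue SEC61A2 differed by 0.051 and 0.078 with KL-FL and by 0.081 and 0.024 with KL1. SEC62, the partner of SEC63 in post-translational import, differed by 0.066 and 0.035.

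The TRAP complex sits beside the channel and helps weak signal sequences open it, and with KL-FL 2 of its 4 subunits had higher means and 2 lower. SSR1, the alpha subunit, read 9.32, 9.35 and 9.35 with KL-FL, 9.32, 9.20 and 9.23 with KL1, and 9.20, 9.22 and 9.23 in controls. KL-FL arrays lay above every control and every KL1 array, with KL1 replicate 1 only just below the lowest KL-FL array. The difference was 0.12 with KL-FL (SE 0.036, adjusted p = 0.646), or 1.09-fold with an interval of 1.03 to 1.15. It was 0.029 with KL1 (adjusted p = 0.939) and 0.094 between KL-FL and KL1 (adjusted p = 0.855). Leaving out 1 array at a time kept the KL-FL difference between 0.11 and 0.13.

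SSR2, the beta subunit, read 10.10, 10.18 and 9.86 with KL-FL, 10.10, 10.18 and 10.14 with KL1, and 10.22, 10.22 and 10.25 in controls. All 6 klotho arrays lay below the 3 control arrays, and KL-FL replicate 3 lay lowest. The difference was -0.18 with KL-FL (SE 0.071, adjusted p = 0.688), which is 0.881-fold, and -0.088 with KL1 (adjusted p = 0.929). Without KL-FL replicate 3 it was -0.089 with KL-FL, near the KL1 value. The gamma subunit SSR3 differed by 0.067 with KL-FL and 0.013 with KL1. SSR4, the delta subunit, differed by -0.086 with KL-FL and 0.098 with KL1, and by -0.18 between KL-FL and KL1 (adjusted p = 0.855). Its lowest value was on KL-FL replicate 3 and its highest on KL1 replicate 2, and without KL-FL replicate 3 the SSR4 difference with KL-FL was 0.033, of opposite sign.

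**Figure D2:**
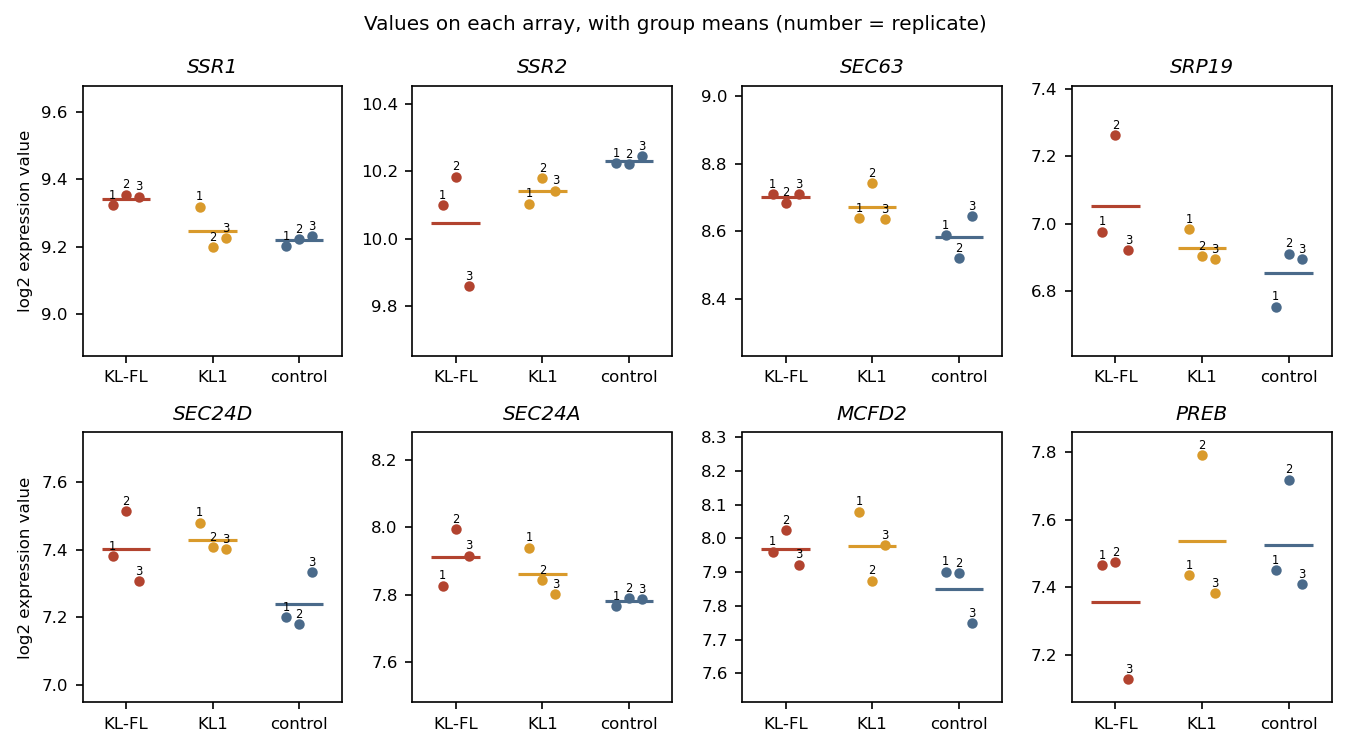
Log2 values of 8 genes on each array, with KL-FL, KL1 and control side by side, a bar at each group mean and the replicate number beside each point. SSR1 and SEC63 lie above the controls on all 3 KL-FL arrays, SSR2 lies below them on all 6 klotho arrays, and PREB is high on replicate 2 of both KL1 and control.

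Signal peptidase removes signal sequences in the ER lumen, and its 4 measured genes differed from control by 0.042 or less either way, with KL-FL and with KL1. SEC11A, a catalytic subunit, read 6.18, 6.07 and 6.07 with KL-FL, 6.07, 6.08 and 6.01 with KL1, and 6.06, 6.07 and 6.07 in controls. SPCS3, an accessory subunit, read 8.27, 8.22 and 8.04 with KL-FL, 8.15, 8.13 and 8.10 with KL1, and 8.16, 8.16 and 8.16 in controls. KL1 lay below the controls for SPCS3, and the KL-FL arrays spread to both sides of them. Differences were 0.042 for SEC11A and 0.020 for SPCS3 with KL-FL, and -0.015 and -0.033 with KL1. Without KL-FL replicate 1 the SEC11A difference with KL-FL was 0.0047. The other catalytic subunit, SEC11C, differed by 0.021 with KL-FL and 0.038 with KL1, and SPCS2 by 0.0080 and -0.026. A dimmer second probe set differed in sign with KL-FL for SEC11A, at -0.048, and for SPCS2, at -0.013.

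COPII is the coat of vesicles leaving the ER. Of its 11 measured genes 7 had higher means with KL-FL (median 0.037), against 57.3% of all genes. With KL1 9 of 11 had higher means (median 0.013), against 52.1% of all genes. SEC24D, a cargo-selecting inner coat subunit, read 7.38, 7.52 and 7.31 with KL-FL, 7.48, 7.41 and 7.40 with KL1, and 7.20, 7.18 and 7.33 in controls. KL1 lay wholly above the controls, while KL-FL replicate 3 lay below control replicate 3. The difference was 0.16 with KL-FL (SE 0.060, adjusted p = 0.688), 0.19 with KL1 (adjusted p = 0.927) and 0.18 with both together (SE 0.052, adjusted p = 0.748). The last is 1.13-fold with an interval of 1.04 to 1.23. Without KL-FL replicate 2 the KL-FL difference was 0.11.

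SEC24A, another SEC24 paralogue, read 7.83, 7.99 and 7.92 with KL-FL, 7.94, 7.84 and 7.80 with KL1, and 7.77, 7.79 and 7.79 in controls. It was the 1 listed gene of 42 with all 6 klotho arrays above all 3 controls, a pattern shown by 2.2% of all genes, and SSR2 was the 1 with all 6 below, shown by 1.36%. The SEC24A difference was 0.13 with KL-FL (SE 0.049, adjusted p = 0.688) and 0.081 with KL1 (adjusted p = 0.927). SEC24B and SEC24C, which also select cargo, differed by 0.037 and -0.078 with KL-FL and by 0.035 and 0.0076 with KL1.

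SAR1A, the GTPase that starts coat assembly, read 8.71, 8.78 and 8.64 with KL-FL, 8.71, 8.72 and 8.53 with KL1, and 8.68, 8.59 and 8.52 in controls, with overlap. Its difference was 0.12 with KL-FL (adjusted p = 0.712) and 0.055 with KL1. PREB, the exchange factor that loads SAR1 with GTP, read 7.47, 7.48 and 7.13 with KL-FL, 7.44, 7.79 and 7.38 with KL1, and 7.45, 7.72 and 7.41 in controls. Its replicate 2 values were the highest with KL1 and in controls, and its replicate 3 value the lowest with KL-FL. PREB had the widest intervals of the list, and differed by -0.17 with KL-FL (SE 0.13, adjusted p = 0.765) and 0.010 with KL1, the first being -0.056 without KL-FL replicate 3. SEC16A, which marks ER exit sites, differed by 0.086 with KL-FL and 0.0052 with KL1. SEC16A was highest on KL-FL replicate 3, without which the KL-FL difference was 0.0061. The remaining COPII genes are SAR1B, the inner coat GTPase activators SEC23A and SEC23B, and SEC13 of the outer coat, whose differences lay within 0.064 of 0 in both comparisons. Without KL-FL replicate 3 the KL-FL difference of SEC23B was 0.10 (adjusted p = 0.522), against 0.038 with it, and those of SEC13 and SEC23A were 0.032 and 0.020, against -0.018 and -0.011 with it.

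COPI carries cargo back to the ER. ARCN1, the delta subunit, read 8.66, 8.68 and 8.59 with KL-FL, 8.67, 8.51 and 8.56 with KL1, and 8.62, 8.54 and 8.58 in controls. COPG1, a gamma subunit, read 9.01, 9.07 and 8.80 with KL-FL, 9.02, 9.01 and 8.90 with KL1, and 9.00, 9.07 and 9.00 in controls. The groups overlapped for both. Differences were 0.066 for ARCN1 and -0.065 for COPG1 with KL-FL, and 0.0035 and -0.048 with KL1. Those of COPB1 and COPB2, the beta and beta-prime subunits, were 0.0087 and 0.030 with KL-FL and -0.0038 and 0.013 with KL1.

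KDEL receptors bind the tail signal of escaped ER residents and ride COPI vesicles home. KDELR1 read 8.92, 8.88 and 8.79 with KL-FL, 8.82, 8.68 and 8.90 with KL1, and 8.82, 8.63 and 8.82 in controls. KDELR3 read 8.15, 8.32 and 7.96 with KL-FL, 8.18, 8.06 and 8.12 with KL1, and 8.14, 8.18 and 8.23 in controls. Groups overlapped, and the KDELR3 spread was widest with KL-FL. With KL-FL the differences were 0.10 for KDELR1 (adjusted p = 0.747) and -0.039 for KDELR3, and with KL1 0.043 and -0.063. The KDELR1 difference with KL-FL was 0.037 without control replicate 2.

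All 4 cargo receptor genes had higher means with KL-FL, against 57.3% of all genes, with a median of 0.068. With KL1 3 of 4 had higher means, against 52.1% of all genes, with a median of 0.023. MCFD2, the partner of LMAN1 in exporting clotting factors, read 7.96, 8.02 and 7.92 with KL-FL, 8.08, 7.87 and 7.98 with KL1, and 7.90, 7.90 and 7.75 in controls. KL-FL lay above the controls, and KL1 replicate 2 lay among them. Its difference was 0.12 with KL-FL (SE 0.061, adjusted p = 0.709) and 0.13 with KL1 (adjusted p = 0.927), and without control replicate 3 the first was 0.070. TMED2, a p24 family protein of COPI and COPII vesicles, read 10.73, 10.74 and 10.73 with KL-FL, 10.74, 10.67 and 10.65 with KL1, and 10.64, 10.74 and 10.58 in controls. Control replicate 2 reached the KL-FL level, and the difference was 0.079 with KL-FL (adjusted p = 0.709) and 0.033 with KL1. With KL-FL it was 0.044 without control replicate 3 and 0.12 without control replicate 2. The lectin LMAN1 differed by 0.057 with KL-FL and 0.013 with KL1, and TMED10, another p24 protein, by 0.011 and -0.014.

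Genes whose groups did not overlap were also counted, as a description. With KL-FL, SEC24A, SEC24B, SEC63, SSR1, MCFD2 and SRP19 lay wholly above the controls, 6 of 42, against 7.13% of all genes. SEC24C and SSR2 lay wholly below, 2 of 42, against 3.25%. With KL1, SEC24D and SEC24A lay wholly above, 2 of 42, against 5.13%, and SSR2, SPCS3 and SRP54 wholly below, 3 of 42, against 4.34%. SSR1 and SRP54 had KL-FL wholly above KL1, 2 of 42, against 4.67%, and 0 of 42 had it wholly below, against 2.21%.

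The arrays themselves differed across the list. A gene's deviation is its value minus its mean over the 9 arrays, and the median deviation of the 42 genes was 0.025, 0.070 and -0.022 on the KL-FL arrays. It was 0.016, -0.0054 and -0.026 on the KL1 arrays, and -0.0023, -0.015 and -0.012 on the controls. KL-FL replicate 2 held the highest value for 16 of 42 genes, or 38.1%, against 21.2% of all genes and 22.6% of the brighter ones. KL-FL replicate 3 held the lowest for 11 of 42, or 26.2%, against 23.9% of all genes and 31.5% of the brighter ones. The SD within a group, as a median over the 42 genes, was 0.069 with KL-FL, 0.053 with KL1 and 0.032 in controls, against 0.058, 0.048 and 0.042 over all genes. The part that array differences play in the KL-FL values was not tested.

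**Figure D3:**
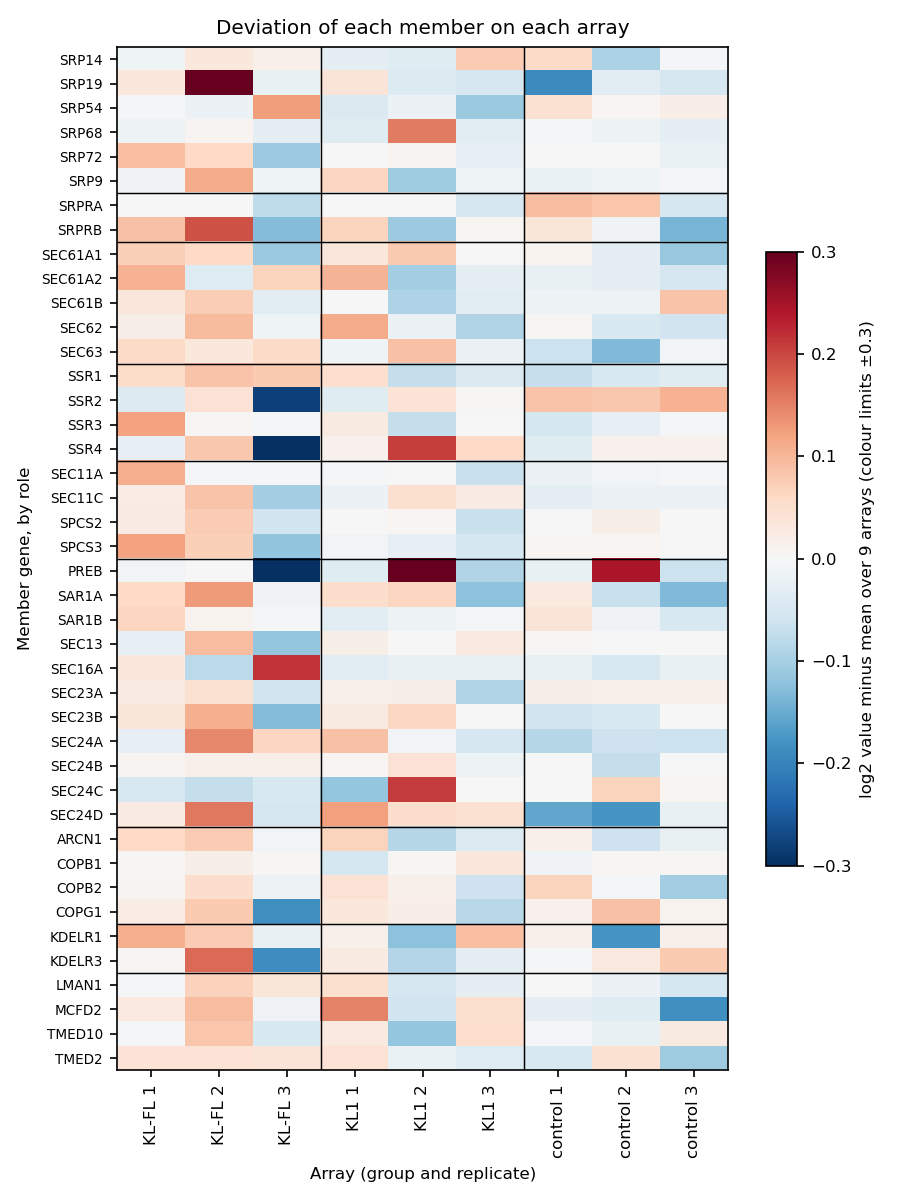
Deviation of each of the 42 genes from its mean over 9 arrays (log2, colour limits at 0.3 either way, beyond which colours saturate), with genes by role down the page and arrays by group across it. KL-FL replicate 2 is mostly red and KL-FL replicate 3 mixed, with SSR2, SSR4 and PREB deep blue.

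Genes with and without TGACGTGG were compared as a description. With KL-FL the 10 measured genes holding it had a median difference of 0.048, 7 of them higher. The 30 measured genes with a promoter lacking it had a median of 0.033, 25 of them higher. Of all genes 57.3% were higher, and of those at or above the 50th percentile of brightness 50.9%. With KL1 both medians were 0.013. SRP19 and SEC24A, whose promoters are printed above, gave the highest KL-FL values among the holders, at 0.20 and 0.13, and SSR4 the lowest, at -0.086, or 0.033 without KL-FL replicate 3. SSR1 and SEC63, whose promoters lack the element, reached 0.12 with KL-FL. Both promoters do hold its shorter core GACGTG, as CACGTC on the gene's own strand.

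**Figure D4:**
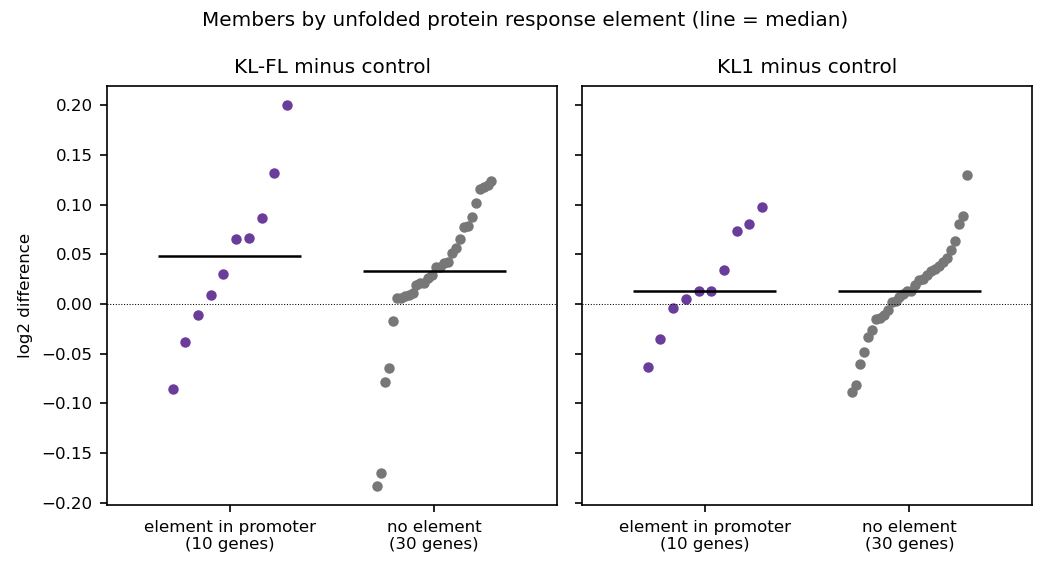
Log2 difference with KL-FL (left) and KL1 (right), minus control, of measured genes whose promoter holds TGACGTGG (10 genes) and of those whose promoter does not (30 genes), with a line at each median. The medians are 0.048 and 0.033 with KL-FL and 0.013 and 0.013 with KL1, and the ranges overlap.

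Other genes of the same route gave 0 calls as well. Of 27 measured genes of translocation and membrane insertion outside the list, 0 passed in any of the 4 comparisons. Over all genes 1 of 17958, or 0.00557%, passed in each comparison with control, so 0 says little about these genes. With KL-FL 11 were higher and 16 lower, with a median of -0.016, and with KL1 10 and 17, with a median of -0.023. Among all genes 57.3% were higher with KL-FL and 52.1% with KL1. EMC2, a subunit of the ER membrane protein complex that inserts membrane proteins, averaged 8.38 ± 0.068 with KL-FL, 8.22 ± 0.068 with KL1 and 8.23 ± 0.068 in controls (SD, n = 3 each). All its KL-FL arrays lay above the KL1 and control arrays. Of all genes 7.13% had KL-FL wholly above the controls and 4.67% had it wholly above KL1. The EMC2 difference with KL-FL was 0.15 (SE 0.052, adjusted p = 0.688). TMEM208, of the SRP-independent targeting route, differed by 0.099 with KL-FL and -0.082 with KL1. TRAM1, a membrane protein beside the translocon, differed by 0.096 and 0.078.

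Of 51 measured genes of ER to Golgi traffic outside the list, 0 passed in any comparison, against 0.00557% of all genes in each comparison with control. With KL-FL 29 were higher and 22 lower (median 0.0089), against 57.3% of all genes higher. With KL1 the split was 25 and 26 (median -0.0011), against 52.1% higher. COPE, the epsilon subunit of COPI, averaged 7.88 ± 0.24 with KL-FL, 7.99 ± 0.12 with KL1 and 8.19 ± 0.11 in controls, with a difference of -0.32 with KL-FL (SE 0.11, adjusted p = 0.688) and -0.20 with KL1. TMED9, a p24 protein, averaged 6.89 ± 0.17 with KL-FL, 7.29 ± 0.33 with KL1 and 7.03 ± 0.058 in controls, and differed by -0.39 between KL-FL and KL1 (adjusted p = 0.855). Its KL1 replicate 2, at 7.67, stood apart from the other arrays. TMED1, also of the p24 family, differed by 0.045 with KL-FL and 0.12 with KL1.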

How the data were processed

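Whole-transcript arrays of HCT 116 cells were made from 100 ng of RNA per sample, per the labels' protocols. The authors deposited 1 table of log2 values for 33297 probe sets on 9 arrays, ranging over 1.79 to 12.4. The log base was inferred from that range. The submitters' processing notes name Partek 6.6, and the normalization is not given in the sources used here. A platform table named 1 gene for 19181 probe sets, several for 2055 and none here for 12061. The brightest single-gene probe set per gene gave 17958 genes.

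Groups came from sample titles. A 3-group model with no covariate and 6 residual degrees of freedom was fitted to all genes with limma 3.58.1 in R 4.3.3. It was tried on simulated data whose changes were all larger than any difference of a listed gene here. That trial does not show that differences as small as these can be detected. The number of arrays limits the precision. The members, gene lists, rule for named genes and promoter motifs were chosen with earlier results of these data known. Values on every array are given for the 2 genes of each role (3 for COPII) with the smallest moderated F p-values and for both receptor genes. PREB was added after its values were seen. The 3 genes with the smallest F p-values are named from each outside list.

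Same-numbered KL1 and control arrays deviated together, with correlations of 0.113, 0.322 and 0.186. No correlation was computed between arrays with different numbers, so whether the numbers pair the arrays was not tested. The main model has no replicate term, and its p-values and intervals use no pairing. The correlations for KL-FL and control were 0.097, -0.00040 and -0.0073, and those for KL-FL and KL1 were 0.012, -0.095 and -0.095. Alternatives changed the normalization, brightness filter, array weights, variance estimate, probe set rule, replicate block and arrays left out.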

Additional observations from a re-analysis of the deposited data

How the results depend on the processing

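Under all 18 alternatives 0 of the 42 genes passed the threshold in any comparison. The smallest adjusted p was 0.0594, for SSR3 with KL-FL under array weights, next to 0.0603 for SSR1. Those weights gave KL-FL replicate 1 a weight of 6.76 and KL-FL replicate 3 one of 0.265, and called 523 of all genes with KL-FL, against 1 without weights. With them 18 of 42 genes, or 42.9%, had an unadjusted p under 0.05 with KL-FL, against 22.1% of all genes. That count was 3 with each gene's own variance (5.69% of all genes) and 4 with only the arrays compared (6.04%). It was 7 under quantile normalization (7.17%) and 8 with the replicate block (7.65%). The KL1 median of the 42 genes was 0.029 under quantile normalization, and the cause was not tested. With the replicate block 0 of 42 genes passed in any comparison, and the count over all genes was 0 with KL-FL and 0 with KL1, against 1 each. The block changed no call among the 42 genes, and since each number holds 1 array per group it cannot move the differences, such as the medians of 0.034 with KL-FL and 0.013 with KL1. For PREB with KL-FL the block gave an SE of 0.069 (unadjusted p = 0.043, adjusted p = 0.642, limma). The fit on only the arrays compared was not run for both klotho groups together, which uses all 9.

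Of 1349 alternative values for 19 genes, 40 turned sign, in 22 of 76 results, and the cause was not tested. With KL-FL these were SEC61B at -0.00078 under median centring, SEC11A at -0.0028 as a mean over probe sets and SRP54 at -0.024 under array weights. With KL1 they were ARCN1 at -0.00095 under median centring and SEC11A at 0.00077 under quantile normalization. With both together, SEC11A was -0.013 as a mean over probe sets, and SPCS3 was 0.0055 under quantile normalization and 0.033 under array weights. Between KL-FL and KL1, array weights gave 0.043 for COPG1, -0.013 for SEC24A and 0.020 for SRPRA. Leaving out 1 array at a time with KL-FL gave ranges of -0.12 to 0.014 for COPG1, -0.13 to 0.052 for KDELR3, -0.019 to 0.040 for SEC61B, -0.028 to 0.091 for SPCS3 and -0.036 to 0.035 for SRP54. With KL1 they were -0.039 to 0.036 for ARCN1, -0.022 to 0.10 for KDELR1, -0.026 to 0.074 for SRPRB, -0.0064 to 0.054 for SSR1, -0.0022 to 0.074 for TMED2 and -0.026 to 0.0069 for SEC11A. With both together they were -0.044 to 0.0061 for SEC61B, -0.0050 to 0.025 for SEC11A and -0.031 to 0.029 for SPCS3. Between KL-FL and KL1 they were -0.070 to 0.061 for COPG1, -0.086 to 0.018 for SEC24D, -0.062 to 0.12 for KDELR3, -0.025 to 0.017 for SRPRA, -0.0081 to 0.15 for SRPRB and -0.061 to 0.041 for MCFD2.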

Other observations

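Genes outside the list that hold TGACGTGG in their promoter numbered 145 among those measured. With KL-FL 89 of them, or 61.4%, had higher means, with a median difference of 0.022. Of the 13679 other measured genes without it 57.1% were higher, with a median of 0.0096. With KL1 the median was 0.011 in holders and 0.0020 in the rest. None of the 145 passed limma's threshold in either comparison, and 12 with KL-FL (8.28%) and 8 with KL1 (5.52%) had an unadjusted p under 0.05, against 7.10% and 5.05% of the genes without the element. SRP9 has a second probe set, which differed by 0.071 with KL-FL, against 0.042 for the brighter one. With KL1 it differed by 0.0099 against -0.0062, of opposite sign. The count of 4 of 6 signal recognition particle genes higher with KL1 rests on the brighter one. Of the 42 genes, 19 have a value shared exactly by 2 or more arrays, or 45.2%, against 68.5% of all genes.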
